A study of Mus musculus with 61 samples.

Results

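The mouse histone genes were described in single ovarian cells collected after doxorubicin or its solvent. Every gene of the count table whose symbol begins with one of a fixed set of histone prefixes, in the older or the newer nomenclature, was taken as a member. Histone genes with other symbols, such as Cenpa, were not members. The rule returned 75 of 23927 genes. They comprised 8 linker histones, 56 replication-dependent core histone genes (19 of H2A, 15 of H2B, 12 of H3 and 10 of H4) and 11 replacement variants. Both the core and the variant class include pseudogenes, and the variant class also includes an antisense gene.

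Single oocytes and single granulosa cells came from ovaries of wild-type (WT) CD-1 mice on postnatal day 5, and each library was made from 1 cell by SMART-seq. The 16 control oocytes and 16 control granulosa cells came from mice injected intraperitoneally with the solvent, which the labels call vehicle. The 16 doxorubicin oocytes and 13 doxorubicin granulosa cells came from mice injected with doxorubicin. All were collected 6 hours after the injection. Genotype, age and the batch label were the same in all 4 groups. The dose, written as 10 mg/kb, is uncertain because that unit is none for a dose. No animal is named for any cell, so it is unknown whether the cells of a group share an animal. Each group was therefore treated as 1 sample, and no test between groups was made. Counting intervals given here are exact 95% intervals, cover counting error only and take amplified reads as independent molecules, which they are not.

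Histones package DNA into nucleosomes: core histones H2A, H2B, H3 and H4 form the particle, and linker histones bind the DNA where it enters and leaves. Replication-dependent histone genes are transcribed mainly in S phase and give mRNAs that end in a conserved stem-loop bound by SLBP, in place of a poly(A) tail, whereas replacement variants are made throughout the cell cycle from polyadenylated mRNAs and enter chromatin outside replication. Oocytes of the early ovary are arrested in meiotic prophase and carry their own linker histone, H1f8 (also called H1foo), while doxorubicin traps topoisomerase II on DNA and is known to evict histones from chromatin. SMART-seq starts its first cDNA strand from a poly(A) tail, so a histone mRNA that ends in the stem-loop alone is not primed efficiently.

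The 3′ ends of the members are shown because they bear on what a poly(A)-primed library can count. Of 75 members, 74 were found in the GENCODE M21 annotation of mm10. The canonical histone stem-loop was searched on the sense strand, in the 3′ untranslated region of each gene's longest transcript, as a hairpin of 16 bases with 6 pairs and a loop of 4 bases. It was found in 34 of 55 core histone genes, all among the 44 whose model holds a 3′ untranslated region, in 3 of 8 linker histone genes and in 2 of 11 variants. For comparison, it was found anywhere in the longest transcript of 50 of 21877 protein-coding genes (0.229%), of which 39 were members. A poly(A) signal, AATAAA or ATTAAA, stood in the last 40 bases of 11 of the 55 core genes, 4 of the 8 linker genes and 5 of the 11 variants, against 70.01% of protein-coding genes. The absence of a match says only that these letters were not in the part searched. The 6 stem-loops printed below belong to members described in the text, with the stem-loop in capitals and up to 5 flanking bases in lower case.
H4c4: ccaaaGGCCCTTTTCAGGGCCactac
H1f2: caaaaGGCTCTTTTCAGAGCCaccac
Hist1h2ap: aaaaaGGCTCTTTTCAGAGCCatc
H2ac18: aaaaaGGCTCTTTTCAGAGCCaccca
H2ac20: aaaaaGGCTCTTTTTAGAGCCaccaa
H2ax: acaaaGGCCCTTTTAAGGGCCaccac
On mm10 the capitals lie at chr13:23581950-23581965 (plus strand) for H4c4, chr13:23739512-23739527 (plus) for H1f2, chr13:21833029-21833044 (minus) for Hist1h2ap, chr3:96246032-96246047 (plus) for H2ac18, chr3:96220418-96220433 (minus) for H2ac20 and chr9:44335240-44335255 (plus) for H2ax. All lie in 3′ untranslated sequence. Of the 39 stem-loops, 24 had the 16 bases of H1f2 and 5 those of H4c4. In the RefSeq annotation of GRCm38.p6, 31 of the 35 stem-loop genes found there end within 10 bases of the stem-loop, H4c4 and H1f2 each 4 bases after it. GENCODE has transcripts that run more than 100 bases past the stem-loop for 19 of the 39. Its longest transcripts go on for 770 bases in H4c4 and 840 bases in H1f2. H2ax ends 822 bases past its stem-loop in both annotations and has a poly(A) signal there, as H1f2 does in its longer transcript. No stem-loop was found in H1f8, H1f0, H2az1, H2az2, H3f3a, H3f3b or H2bc4.

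Library totals ranged from 6834594 to 31262609 counts per cell, with group medians between 10826423 and 11478173. The summed CPM (counts per 1000000 counts of the library) of 20 oocyte markers exceeded that of 21 granulosa markers in all 32 oocyte libraries. Granulosa markers exceeded oocyte markers in 13 of 16 control but only 5 of 13 doxorubicin granulosa libraries. The oocyte marker sum was 456 to 15918 CPM, median 1479, in control granulosa cells and 375 to 45008 CPM, median 10161, in doxorubicin granulosa cells. In that comparison 17 of the 17 oocyte markers that could be compared were higher after doxorubicin. Of the defining markers, Oosp1 and Oog1 were at 0 in control and Oog1 in doxorubicin granulosa cells. The markers Ddx4 and Lhx8 stayed under 5 CPM in both granulosa groups and had negative log2 ratios, -1.54 and -1.19. When each cell was left out, these ratios reached 1.90 and 0.33, so neither sign held. No doxorubicin granulosa library exceeded 3.03 CPM of Ddx4 or 3.42 CPM of Lhx8. Their group levels in control oocytes were 269 and 225 CPM. By the marker sums, 8 doxorubicin granulosa libraries and 3 control granulosa libraries (8, 13 and 14) go against their label. Those control libraries held 15918, 4620 and 8144 CPM of oocyte markers and 2972, 1125 and 3268 CPM of granulosa markers. Among oocytes, the granulosa marker sum was 6.67 to 1163 CPM in controls and 27.1 to 4390 CPM after doxorubicin, with doxorubicin oocytes 9, 11 and 12 highest, at 4390, 3585 and 2903 CPM. In summed counts, none of the granulosa markers was at 0 in either oocyte group, and Fshr was under 3 counts in control oocytes. The median oocyte of both groups had 0 CPM of Amh, Inhba, Inhbb, Krt18, Krt19 and Fshr. Doxorubicin granulosa library 15 held 34686 CPM of blood and immune markers. The sum of 8 stroma markers exceeded the granulosa marker sum in control granulosa libraries 2, 8, 13, 14 and 16 and in doxorubicin granulosa library 13. For some genes, ratios are also given over libraries chosen by markers, while other ratios rest on all libraries. Library 15, at 13106 CPM of granulosa and 2026 CPM of oocyte markers, stays among the libraries with more granulosa than oocyte markers. Control granulosa libraries 2 and 16 and doxorubicin granulosa library 13 stay there too. They held 8331, 4253 and 7956 CPM of stroma markers and 1122, 982 and 2402 CPM of granulosa markers. The part that material of another cell type has in these libraries was not tested.

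Group levels are counts summed over a group's cells, in CPM. A value given by cell medians is the difference between groups in the median of log2 of CPM plus 1. The added 1 gives it a value where a median is 0 and makes it smaller at low levels. A gene is said to rise or fall where the log2 ratio of group levels was at least 1 in size, a 2-fold change, and a group reached 5 CPM, which is a rule of size. By that level, 21 of 75 histone genes could be compared in some group (7 linker, 9 core and 5 variants), while 54 stayed under 5 CPM in all 4 groups, with highest group levels of 0.0307 to 4.69 CPM. Of those 54, 47 were core histone genes, 6 variants and 1 a linker histone. Of the 28 core genes with a stem-loop and no poly(A) signal, 6 reached 5 CPM and 4 reached 20 CPM, and of the 5 with a poly(A) signal and no stem-loop none reached 5 CPM. In oocytes, 2 histone genes (H4c4 and H2bc4) were higher after doxorubicin, of 17 compared, against a background of 6.3% of all genes compared. None was lower, against a background of 2.45%. In granulosa cells, 3 of 20 were higher (H1f8, H2ac18 and H2bc4) against a background of 20.6%, and 4 were lower (H1f1, H1f2, H1f5 and H2ac20) against 20%. The median log2 ratio of the histone genes was 0.11 in oocytes, where that of all genes was 0.0087, and -0.43 in granulosa cells, where it was -0.03. By class, the oocyte medians were -0.47 for 5 linker, 0.62 for 7 core and 0.27 for 5 variant genes, and the granulosa medians were -0.37 for 7, -0.40 for 8 and -0.49 for 5. The log2 ratios of the 18 genes named individually are plotted with their counting intervals and with their range when each cell was left out.

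**Figure D1:**
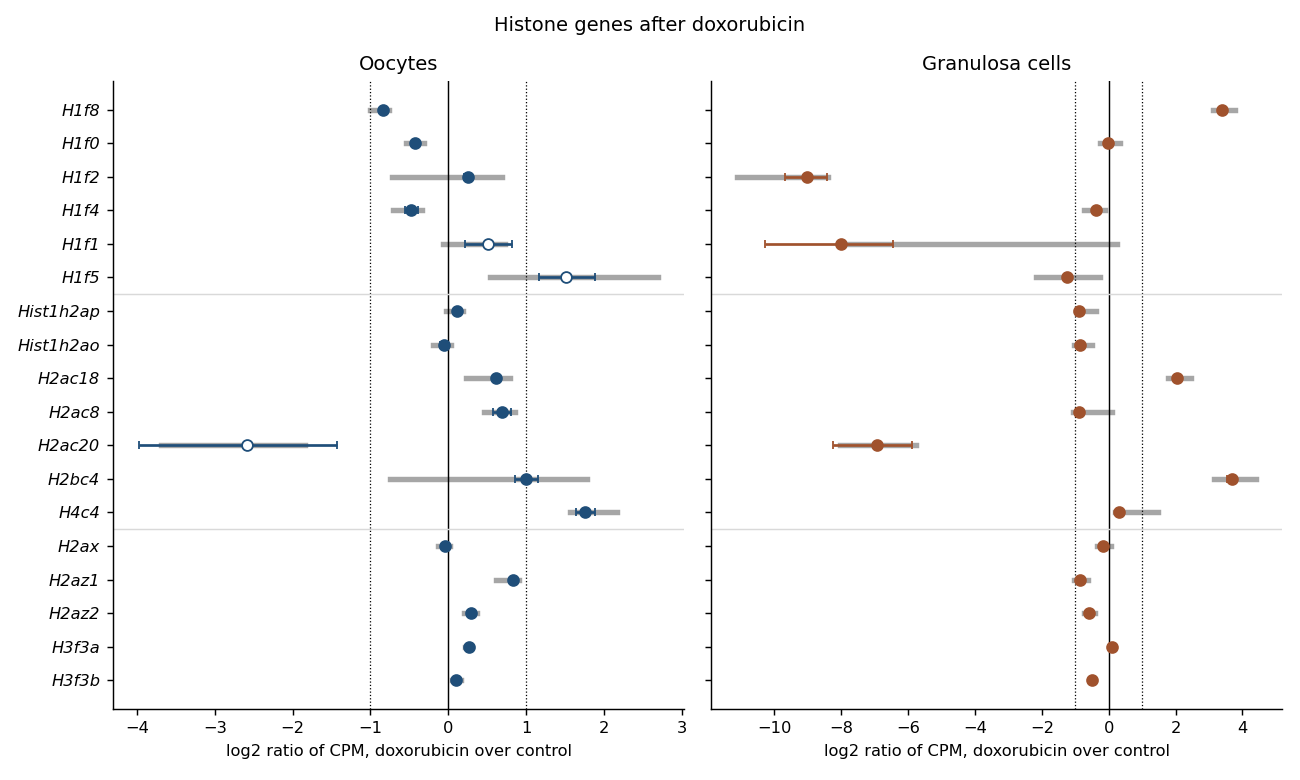
Log2 ratio of group CPM, doxorubicin over control, of 18 histone genes in oocytes and in granulosa cells. Dots are ratios (open where both groups were under 5 CPM), whiskers are 95% counting intervals, grey bars are the range when each cell was left out in turn, and dotted lines mark a log2 ratio of 1 in size; H1f1 in granulosa cells is drawn with its 2 counts set to 3. In granulosa cells H1f2 lies at -9.02 and H1f8 at 3.40, while in oocytes H4c4 at 1.76 has a grey bar that stays past 1.

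The starting point was the difference between the cell types in control animals. Per kilobase of the longest transcript, the highest levels in control oocytes were 435 CPM per kb for Hist1h2ap and 424 for H1f8, followed by 254 for H3f3b, 139 for H3f3a and 128 for H2az1. In control granulosa cells H2az1 led with 1309 CPM per kb, followed by H3f3b with 805, Hist1h2ap with 480 and H3f3a with 374. Hist1h2ap is an H2A gene of the large chromosome 13 cluster, and 92.2% of its sequence windows are shared with another gene, so its value may be that of several copies. Of 20 histone genes compared between these 2 groups, 4 were higher in oocytes (H1f8, H2ac18, H1f10 and H4c9), against a background of 29%. Lower in oocytes were 12, against a background of 31.3%, among them 4 of 5 replacement variants. The median log2 ratio of the 20 was -1.43, where that of all genes was -0.03. The control cells also serve in the drug comparisons, so the comparisons are not independent.

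Among the linker histones, H1f8 (chr6:115944931-115950242 on GRCm38.p6) was higher in oocytes. Its level was 170 to 704 CPM, median 499, in control oocytes and 0.076 to 536 CPM, median 48.1, in control granulosa cells. The ranges overlapped through control granulosa libraries 14, 8 and 9, at 536, 295 and 171 CPM. Libraries 14 and 8 had more oocyte than granulosa markers, while library 9 had more granulosa markers. The log2 ratio of group levels was 2.62 (counting interval 2.59 to 2.64) and lay between 2.51 and 3.0 when each cell was left out. The somatic linker histones did not all go one way. H1f0, the linker histone of slowly dividing and differentiated cells, was lower in oocytes with a log2 ratio of -1.39, and H1f5 with -5.61, while H1f10 was higher with 1.29. The median of H1f5 was 0 in both control groups. Of the control granulosa cells, 11 of 16 had none, and libraries 5 and 8 held 75.5% of its counts there. H1f1 was lower with -2.71, which rested on control granulosa library 5 (5.52 without it, at under 5 CPM). For H1f2 the ratio of group levels was -1.43, and it missed the fold without control granulosa library 8 (-0.80) or 10 (-0.96). By cell medians it was 2.53, where the median of all genes was 1.53. For H1f4 it was -0.93 from group levels and 0.38 by cell medians, below that median of all genes. A sign by cell medians alone therefore does not place a gene higher in oocytes. H1f8 made up 78.3% of linker histone reads in control oocytes, while H1f0 led in control granulosa cells with 44.7%.

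After doxorubicin, oocytes had less H1f8, without passing the fold. H1f8 was 12.9 to 626 CPM, median 198, in doxorubicin oocytes, and 5 of these 16 cells lay below the lowest control oocyte. The other cells overlapped with the controls. The group levels were 476 and 265 CPM, a log2 ratio of -0.85 (-0.86 to -0.83). It ranged from -1.01, without doxorubicin oocyte 4, which passes the fold, to -0.76, and was -0.69 over oocytes whose granulosa marker sum was under 1/10 of their oocyte marker sum, which leaves out doxorubicin oocytes 9, 11 and 12. By cell medians the log2 ratio was -1.33. As a percentage of the oocyte marker sum, H1f8 was 0.621 to 2.15%, median 1.02%, in control and 0.0691 to 1.76%, median 0.766%, in doxorubicin oocytes. The oocyte markers themselves had a median log2 ratio of -0.28 over 18 genes, with 1 lower and 0 higher. Npm2, the oocyte nucleoplasmin that stores histones, had a log2 ratio of 0.47 between the same groups, at 333 and 461 CPM.

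**Figure D2:**
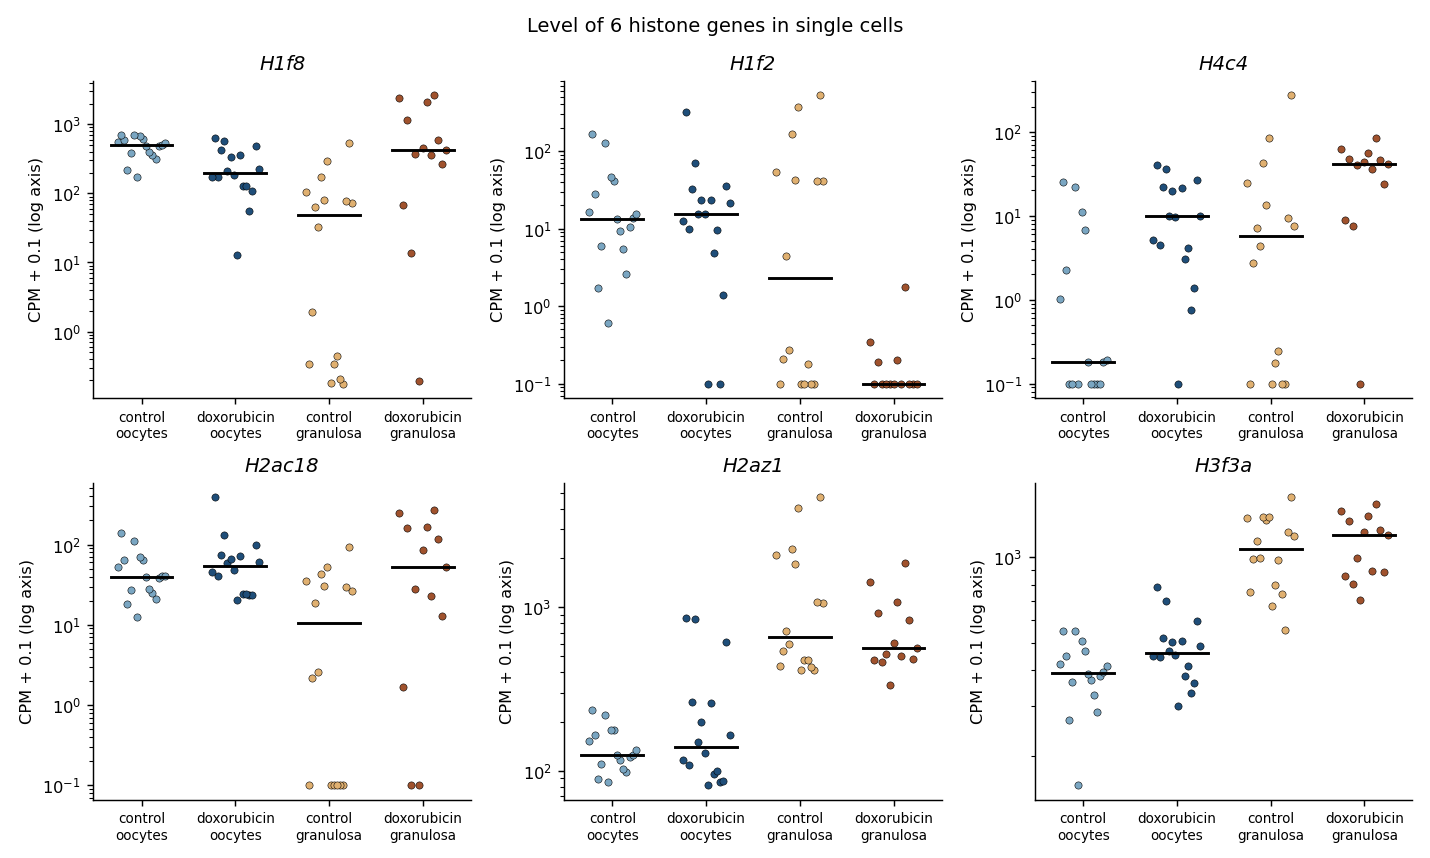
CPM of 6 histone genes in each cell of the 4 groups, on a log axis after adding 0.1; points are cells and bars are medians. H4c4 is at 0 in 7 control oocytes and in 1 doxorubicin oocyte, H1f2 stays under 2 CPM in the doxorubicin granulosa cells, and H1f8 spans 0.076 to 536 and 0.094 to 2618 CPM in the granulosa groups.

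In granulosa libraries H1f8 rose after doxorubicin. It was 0.094 to 2618 CPM, median 429, in doxorubicin granulosa cells, and 5 of 13 were above the highest control granulosa cell. The log2 ratio of group levels was 3.40 (3.37 to 3.42) and stayed between 3.11 and 3.78 when each cell was left out. H1f8 moved with the oocyte marker sum: across the 13 doxorubicin granulosa libraries Spearman's rho was 0.94, given as a description, since both values share a library. Across the 16 control granulosa libraries rho was 0.48. Over the 13 control and 5 doxorubicin libraries in which granulosa markers exceeded oocyte markers, the log2 ratio was 1.72. Over the 3 control and 1 doxorubicin library in which oocyte markers were under 1/10 of granulosa markers, it was -6.81. That last value sets doxorubicin library 16, at 0.094 CPM, against control libraries 1, 5 and 6, at 0.11, 0.35 and 80.0 CPM. It rests on 1 doxorubicin cell and mainly on control library 6. The sign of H1f8 in granulosa cells thus differed between these sets of libraries, with 1 cell behind the negative value. H1f8 was 5.30% of the oocyte marker sum at the median of these 13 libraries, against 1.02% in control oocytes, and Npm2 was 3.62% against 0.717%. Their share was thus above that of control oocytes in the median library.

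H1f2, one of the replication-dependent linker histones, fell in granulosa cells. It was 0 to 523 CPM, median 2.23, in control granulosa cells, where 5 of 16 were at 0 and the libraries 8 and 10, at 523 and 375 CPM, held 72.6% of the counts. Library 8 held more oocyte than granulosa markers. In doxorubicin granulosa cells H1f2 was 0 to 1.66 CPM, and 9 of 13 were at 0. The ranges overlapped at the low end, and values above 1.66 CPM occurred in control cells only. The group levels were 83.6 and 0.161 CPM, a log2 ratio of -9.02 (-9.68 to -8.44), which stayed between -11.11 and -8.39 when each cell was left out and was -10.15 over the libraries with more granulosa than oocyte markers. By cell medians, where the doxorubicin median was 0, it was -1.32, a value set by the 1 added to each CPM. The oocyte groups had 31.1 and 37.1 CPM of H1f2, a log2 ratio of 0.26, and single cells reached 169 CPM in control oocyte 15 and 321 CPM in doxorubicin oocyte 13. Leaving out these cells gave 0.69 and -0.73, so the sign rested on 1 cell.

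In granulosa cells, 2 further linker histones fell with most of their counts in few cells. H1f5 fell from 22.8 to 9.52 CPM, a log2 ratio of -1.26, but control granulosa library 5 held 53.3% of the control counts. Without it the ratio was -0.25, and without library 8 it was -0.99. H1f1 fell from 5.34 CPM, 960 counts that all came from library 5, to 2 counts in the doxorubicin group, a log2 ratio of -8.58 with a counting interval of -11.62 to -6.72. Without library 5 its ratio was 0.24 and it was under 5 CPM. H1f0 stood at 183 and 179 CPM in granulosa cells, a log2 ratio of -0.03, and at 70.1 and 52.1 CPM in oocytes, a log2 ratio of -0.43 (-0.54 to -0.31 when each cell was left out). H1f4 had log2 ratios of -0.47 in oocytes and -0.37 in granulosa cells. Over the alternative settings named below, the granulosa ratio ran from -1.68 to 0.089 for H1f0 and from -8.00 to 0.017 for H1f4. In oocytes H1f1 and H1f5 were under 5 CPM in both groups, with log2 ratios of 0.52 and 1.52. Summed without H1f8, the linker histones were 44.4 to 372 CPM, median 113, in control and 18.7 to 412 CPM, median 90.2, in doxorubicin oocytes. In granulosa cells the sum was 87.0 to 872 CPM, median 226, in control and 51.5 to 619 CPM, median 139, in doxorubicin libraries. The sums overlapped widely in both cell types.

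Among the core histone genes, H4c4 rose in oocytes after doxorubicin. H4c4 encodes histone H4 (chr13:23581568-23581969) and is the gene whose stem-loop is printed first above. It was 0 to 25 CPM, median 0.080, in control oocytes and 0 to 40.5 CPM, median 9.74, in doxorubicin oocytes. At 0 were 7 control oocytes and 1 doxorubicin oocyte, and 3 doxorubicin oocytes were above the highest control, so the ranges overlapped. At least 5 reads were counted in 6 of 16 control and 15 of 16 doxorubicin oocytes. After each cell was thinned to 5000000 counts these were 5 of 16 (31.2%, exact binomial interval 11 to 58.7%) and 15 of 16 (93.8%, 69.8 to 99.8%). These intervals take cells as independent, although cells of a group may share an animal, and they are no test between the groups. The group levels were 4.03 and 13.7 CPM, a log2 ratio of 1.76 (1.65 to 1.88), which ran from 1.57 to 2.17 when each cell was left out. Without the oocytes with most granulosa marker reads it was 1.88. None of the 100-base windows of H4c4 is shared exactly with another of the histone genes taken as members. Genes outside these members were not searched.

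H4c4 had a different pattern in granulosa cells. At least 5 reads were counted in 10 of 16 control and 12 of 13 doxorubicin granulosa cells, the same numbers as after thinning. It was 0 to 271 CPM, median 5.64, in control cells and 0 to 83.6 CPM, median 41.7, in doxorubicin cells. The highest value was that of control granulosa library 5, which held 57.5% of the control counts. The log2 ratio of group levels was 0.32, below the fold, and without library 5 it was 1.46, past it. By cell medians it was 2.72. Over the libraries with more granulosa than oocyte markers it was -0.24. Over those with oocyte markers under 1/10 of granulosa markers it was -8.59, where the only doxorubicin library was at 0.

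The H2B gene H2bc4 was at the fold in oocytes and above it in granulosa cells. In oocytes the log2 ratio was 1.00 (0.86 to 1.15), from 3.16 to 6.34 CPM. Doxorubicin oocyte 4, at 63.6 CPM, held 72.5% of the doxorubicin counts, and without it the ratio was -0.75. The median control oocyte had 0.347 CPM and the median doxorubicin oocyte 1.11 CPM. The ratio also dropped below the fold when any of 12 control oocytes (0.908 to 0.996) or doxorubicin oocyte 12 (0.98) was left out. In granulosa cells H2bc4 rose, with group levels of 2.78 and 35.6 CPM and a log2 ratio of 3.68 (3.55 to 3.82, and 3.16 to 4.42 when each cell was left out), with 4 of 13 doxorubicin cells above the highest control. The median control cell had 0 and the median doxorubicin cell 0.084 CPM, and 2 libraries held 60.7% of the doxorubicin counts. It was 1.91 over libraries with more granulosa than oocyte markers. Over those with oocyte markers under 1/10 of granulosa markers it was -4.54, where the only doxorubicin library was at 0.

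H2ac18, an H2A gene whose windows are shared with another gene for 88.1% of its length, was in all oocytes. It was 12.4 to 138 CPM, median 39.6, in control and 20.2 to 390 CPM, median 54.1, in doxorubicin oocytes. The log2 ratio was 0.62 and 0.23 without doxorubicin oocyte 9. It rose in granulosa cells, with group levels of 21.6 and 89.4 CPM and a log2 ratio of 2.05 (2.0 to 2.10, and 1.76 to 2.46 when each cell was left out). Reads were absent from 6 control granulosa cells, and 5 of 13 doxorubicin cells were above the highest control cell. Over the libraries with more granulosa than oocyte markers the ratio was -0.035, so the rise was not seen there. Over those with oocyte markers under 1/10 it was -5.33, where the only doxorubicin library was at 0. Between the control cell types H2ac18 was higher in oocytes, with a log2 ratio of 1.11. That call was lost (0.928 to 0.999) without control oocyte 3 or 4, or control granulosa library 2 or 7. H2ac20, of the same cluster on chromosome 3, fell in granulosa cells, with group levels of 5.94 and 0.049 CPM and a log2 ratio of -6.92 (-8.24 to -5.88). Of 16 control granulosa cells 13 were at 0, and libraries 5 and 10 held 98.9% of the control counts. Without library 5 the ratio was -5.76 and without library 10 it was -6.28, each at under 5 CPM in both groups.

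The remaining core genes named here were H2A genes. Hist1h2ap was 118 to 383 CPM, median 196, in control and 48.1 to 612 CPM, median 219, in doxorubicin oocytes, a log2 ratio of 0.11. Granulosa cells had 16.8 to 1231 CPM, median 99.0, in control and 5.62 to 217 CPM, median 128, in doxorubicin cells. The granulosa log2 ratio was -0.87, -0.37 without control library 5, which held 33.8% of the counts, and 0.37 by cell medians. Over libraries with more granulosa than oocyte markers it was -1.06, past the fold. Its near-identical relative Hist1h2ao had log2 ratios of -0.05 in oocytes and -0.87 in granulosa cells. The latter was -1.02, past the fold, without doxorubicin library 14 and 0.83 by cell medians. H2ac8 was 4.94 and 7.97 CPM in the oocyte groups, a log2 ratio of 0.69 (0.57 to 0.81). Its granulosa levels were 30.5 and 16.5 CPM, a log2 ratio of -0.89 that was 0.09 without control library 5. It passed the fold without control library 7 or 10 or doxorubicin library 6, 9 or 15 (-1.072 to -1.002), and over libraries with more granulosa than oocyte markers (-1.16). By cell medians it had the opposite sign, at 2.04, with 3.66 CPM in the median control and 17.8 CPM in the median doxorubicin cell. Of the less abundant members, H2ac7 had log2 ratios of 0.51 and 0.07, and H4c9 of -0.57 and -0.46, in oocytes and granulosa cells. The linker histone H1f10, of similar level, had -0.59 and 0.20.

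**Figure D3:**
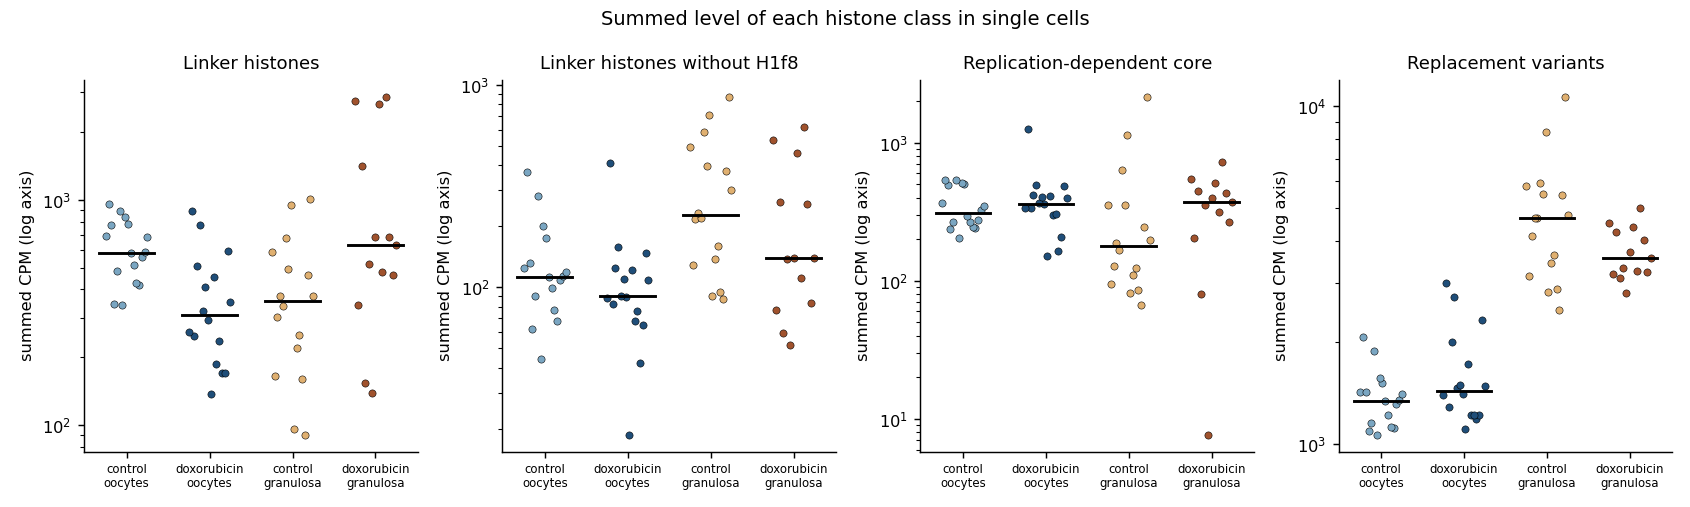
Summed CPM per cell of the linker histones, the linker histones without H1f8, the replication-dependent core histones and the replacement variants, in 4 panels with log axes; points are cells and bars are medians. The core histone sum of control granulosa cells spans 67.0 to 2156 CPM and the medians of the variant sum are higher in both granulosa groups than in the oocyte groups.

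Summed over all core genes, the direction in granulosa cells differed between pooled counts and typical cells. The core sum was 67.0 to 2156 CPM, median 178, in control and 7.68 to 722 CPM, median 369, in doxorubicin granulosa cells, while the pooled group sums were 392 and 356 CPM. Control granulosa libraries 5 and 8 were highest, at 2156 and 1145 CPM, and library 8 held more oocyte than granulosa markers. By cell medians, the median log2 ratio of the core genes in granulosa cells was 0.79, in place of -0.40 from pooled counts. In oocytes the core sum was 205 to 541 CPM, median 308, in control and 150 to 1248 CPM, median 362, after doxorubicin, where oocyte 9, also the highest in granulosa markers, was highest. Spearman's rho between core sum and granulosa marker sum was 0.69 over the 16 doxorubicin oocytes and -0.27 over the 16 control oocytes. Between core sum and oocyte marker sum it was 0.66 over the 13 doxorubicin granulosa cells and 0.085 over the 16 control granulosa cells.

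Among the replacement variants, H2az1 had opposite signs in the 2 cell types. H2az1 (chr3:137864487-137866922) encodes H2A.Z, a variant placed around transcription start sites. It was 84.7 to 234 CPM, median 125, in control and 81.2 to 858 CPM, median 139, in doxorubicin oocytes. Above the highest control lay 5 doxorubicin oocytes, and the highest, at 858, 851 and 610 CPM, were oocytes 9, 11 and 12, which were also the highest in granulosa markers. The log2 ratio was 0.83 (0.81 to 0.85), and 0.05 without those 3 cells. In granulosa cells H2az1 was 411 to 4725 CPM, median 659, in control and 337 to 1872 CPM, median 565, after doxorubicin. Control libraries 5 and 6 were highest, at 4725 and 4080 CPM. The log2 ratio was -0.86 (-0.87 to -0.85), between -1.04 (without doxorubicin library 16, past the fold) and -0.61 (without control library 5), and -0.62 over libraries with more granulosa than oocyte markers. Between the control cell types H2az1 was lower in oocytes, with a log2 ratio of -3.36 and ranges that did not overlap.

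H2az2, the second H2A.Z gene, had smaller ratios of the same signs. It was 52.7 to 185 CPM, median 84.3, in control and 50.1 to 203 CPM, median 100, in doxorubicin oocytes, a log2 ratio of 0.30, and 0.08 without oocytes 9, 11 and 12. Granulosa cells had 70.4 to 730 CPM, median 226, in control and 0.325 to 454 CPM, median 206, after doxorubicin, a log2 ratio of -0.58. The ranges overlapped in both cell types.

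The H3.3 genes H3f3a and H3f3b, which supply H3 outside replication and so need no S phase, had ratios below the fold after doxorubicin. H3f3a was 158 to 549 CPM, median 391, in control and 299 to 783 CPM, median 461, in doxorubicin oocytes, a log2 ratio of 0.27 (0.22 to 0.30 when each cell was left out), with 3 cells above the highest control. Its granulosa groups stood at 1064 and 1133 CPM, a log2 ratio of 0.09. H3f3aos, named as its opposite-strand gene, stayed at or under 0.0559 CPM, and since the counting is not stated to use strand, reads of the pair cannot be told apart where they overlap. H3f3b was 428 to 1052 CPM, median 609, in control and 404 to 1028 CPM, median 675, in doxorubicin oocytes, a log2 ratio of 0.10. In granulosa cells it was 1024 to 3637 CPM, median 1935, in control and 1085 to 2204 CPM, median 1331, after doxorubicin, a log2 ratio of -0.49 (-0.56 to -0.41 when each cell was left out). H2ax encodes the variant phosphorylated next to DNA breaks. At 101 and 98.3 CPM its log2 ratio was -0.04 in oocytes, and at 182 and 163 CPM it was -0.16 in granulosa cells, both below the fold.

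The variant sum was 1064 to 2068 CPM, median 1343, in control and 1106 to 2990 CPM, median 1435, in doxorubicin oocytes. Granulosa cells had 2487 to 10676 CPM, median 4662, in control and 2805 to 4987 CPM, median 3542, after doxorubicin. Of all reads of the histone members, variants took 58.8 and 67.6% in the control and doxorubicin oocyte groups and 86.1 and 72.7% in the granulosa groups. The linker share was 26.4 and 16% in the oocyte groups, beside 7.10 and 20.3% in the granulosa groups. These are shares of reads and not of molecules, since longer transcripts give more reads.

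**Figure D4:**
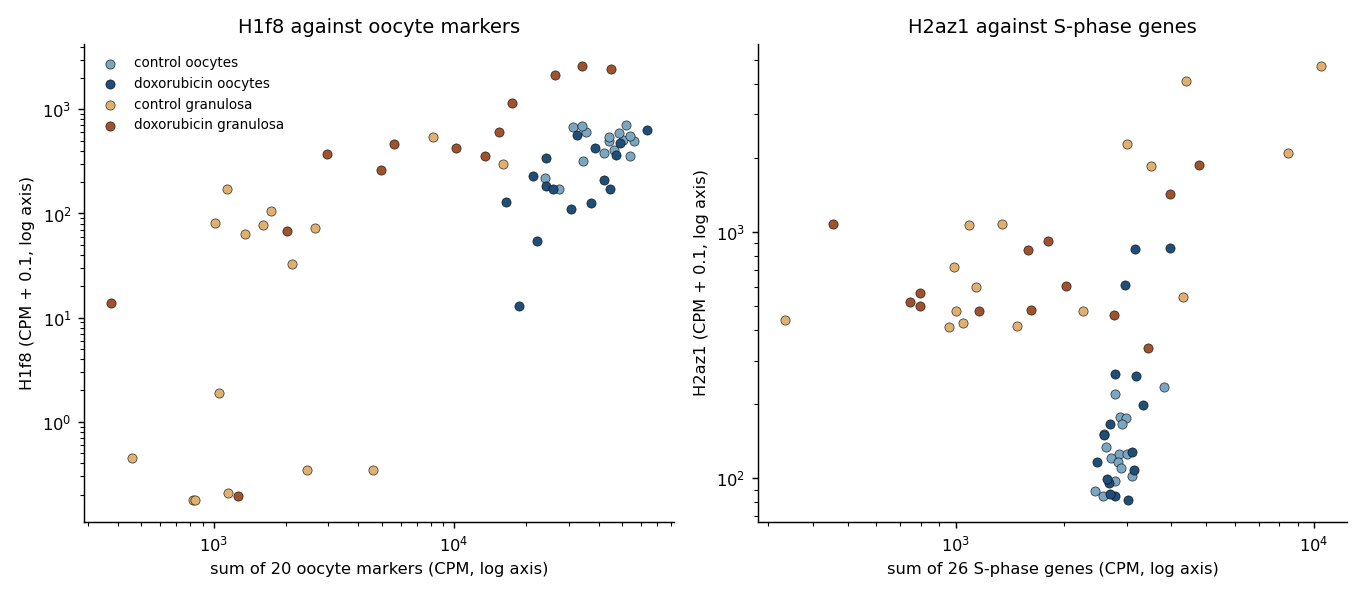
Left, H1f8 against the summed CPM of 20 oocyte markers; right, H2az1 against the summed CPM of 26 S-phase genes, both with log axes and 1 point for each of 61 cells. The doxorubicin granulosa libraries line up on the left (rho 0.94, n = 13), and the control granulosa cells with more S-phase reads have more H2az1 on the right (rho 0.72, n = 16).

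Genes that make, process and carry histones were set beside the members. Of 14 genes of histone mRNA processing, 0 passed the fold in oocytes, against the background of 6.3% higher and 2.45% lower, where the largest log2 ratios were 0.86 for Mif4gd, -0.58 for Cpsf2 and -0.43 for Npat, the activator of histone gene transcription. In granulosa cells 2 were higher and 2 lower, against 20.6% and 20% of all genes, with 1.70 for Upf1, a helicase of histone mRNA decay, -1.46 for Npat and -1.13 for Eri1, an exonuclease that trims the stem-loop. Without doxorubicin granulosa library 9 the Upf1 value was -0.01, and Eri1 missed the fold without control library 5, 7 or 16 or doxorubicin library 8 (-0.994 to -0.757). The other higher gene was Lsm10, a subunit of the U7 particle that cuts histone transcripts, named after its value was seen. Its ratio was 1.03 and missed the fold (0.844 to 0.976) without control library 1, 2, 3, 6, 8, 12, 13 or 14 or doxorubicin library 6, 7, 9 or 12. Neither higher call thus held when each cell was left out. Slbp, which binds the stem-loop, was at 192 and 214 CPM in oocytes (log2 ratio 0.16) and at 297 and 205 CPM in granulosa cells (-0.54).

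Of 32 histone chaperones and remodellers compared, 0 passed the fold in oocytes, and Srcap (0.49), Chaf1a (-0.48) and Set (0.48) were farthest from 0. In granulosa cells 5 were higher and 3 lower, against a background of 20.6% and 20%. Npm2 had a log2 ratio of 3.25, from 48.6 to 462 CPM, beside the oocyte markers described above. Hira, which deposits H3.3, had 1.74, but 0.53 without doxorubicin library 8, and -0.40 in oocytes. Daxx, another H3.3 chaperone, had -1.60. Asf1b, an H3-H4 chaperone of dividing cells, had 1.16 in granulosa cells, missing the fold without doxorubicin library 1 (0.89) or 4 (0.98), and -0.05 in oocytes. Those granulosa libraries held 45008 and 26386 CPM of oocyte markers. Asf1b itself was at 210 CPM in control oocytes and 47.4 CPM in control granulosa cells, a log2 ratio of 2.15. Cenpa, the centromeric H3, had -0.93 in granulosa cells, from -2.32 without doxorubicin library 16 to -0.11 when each cell was left out, and 0.07 in oocytes.

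The 26 S-phase genes were set beside the core histones because both are used in DNA replication. In oocytes 1 was higher and 0 lower, against a background of 6.3% and 2.45%, with a median log2 ratio of 0.08. That gene was Rrm2, a ribonucleotide reductase subunit, at 0 to 59.4 CPM, median 31.8, in control and 18 to 176 CPM, median 68.8, in doxorubicin oocytes, with group levels of 31.7 and 76.4 CPM and a log2 ratio of 1.27. Dtl had 0.76 and Ung -0.60. Of the 26 in granulosa cells, 2 were higher and 9 lower, against a background of 20.6% and 20%, with a median of -0.67. The Rrm2 ratio there was -1.17, and 0.14 without control library 5, while Ccne2 (-7.64), E2f1 (2.31) and Mki67 (-2.14) were farthest from 0. These last ratios stayed past the fold when each cell was left out. The median control granulosa cell, however, had 0.044 CPM of Ccne2, 0.038 of E2f1 and 0.136 of Mki67, beside highest values of 152.5, 48.5 and 693 CPM. The doxorubicin medians were 0, 0.081 and 0.084 CPM. E2f1 was at 108 CPM in control oocytes and 4.04 CPM in control granulosa cells. Across control granulosa cells H2az1 was higher where the S-phase sum was higher (Spearman's rho 0.72, n = 16), and the same value for the core histone sum was 0.12. In doxorubicin granulosa cells these values were 0.11 and -0.27 over 13 cells, and in oocytes the core value was -0.14 in control and -0.12 in doxorubicin cells, each over 16. These correlations share library and depth and are descriptions.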

How the data were processed

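Single-cell SMART-seq libraries were analysed from the estimated counts of each gene in each cell, which the authors deposited as 1 table. Of its nonzero values, 34.0% are not whole, and 62.6% of those of histone genes. Estimated counts can split reads among near-identical copies, and the counting tool is not given in the sources used here. The submitters' processing notes name mm10, Partek, Bowtie2, HISAT2 and DESeq2, without roles or versions. Counts were rounded. The 22 symbols turned into dates (0.144% of counts) were kept in totals and never named. The raw reads of doxorubicin oocyte 4 were lost, per the series text, and its column was kept.

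Group CPM is the counts summed over a group's cells per 1000000 of their summed totals. A group under 3 counts was set to 3 counts, except where raw counts are stated. Intervals are conditional binomial (Clopper-Pearson). Named were members with at least 20 CPM in a group or past the fold in a drug comparison, and, among other lists, up to 3 genes with the largest ratios at 20 CPM or more, plus Slbp, Npm2, Hira, Asf1b and Cenpa. H1f10, H2ac7, H4c9, H3f3aos and Lsm10 were added after their values were seen. Members and lists were chosen with earlier results of these data known. Counting code was tested on simulated data. Stem-loops were read from GENCODE M21 transcripts (mm10). Alternatives were TMM (edgeR 4.0.16) and DESeq2 1.42.0 size factors, medians over cells of log2(CPM + 1), other filters, libraries chosen by markers, and leaving out each cell. Python 3.11.15, numpy 2.4.6, pandas 2.3.3, scipy 1.17.1 and R 4.3.3 were used. Proteins were not analysed here.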

Additional observations from a re-analysis of the deposited data

Results flagged for a closer look

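Among the histone genes that reached 5 CPM in both drug comparisons, the log2 ratios of 4 had opposite signs in granulosa cells and oocytes, in the group ratios and whenever any 1 cell was left out, and the difference between the cell types was not tested. H1f8 stood at 3.40 in granulosa cells and at -0.85 in oocytes. Its granulosa value moved with oocyte markers. H2az1 stood at -0.86 in granulosa cells and at 0.83 in oocytes, where it was 0.05 without the 3 oocytes with most granulosa marker reads. H2az2 stood at -0.58 and 0.30. H3f3b stood at -0.49 and 0.10, and its oocyte value was -0.02 without those 3 oocytes. H1f5 had opposite signs too, -1.26 in granulosa cells and 1.52 in oocytes, but was under 5 CPM in both oocyte groups.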

How the results depend on the processing

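No paired analysis was possible because the numbers in the labels only name cells. In oocytes the count of higher histone genes, 2, became 1 by cell medians, TMM, DESeq2 factors or without doxorubicin oocyte 4, 6 with genes from 1 CPM, 0 from 20 CPM and 19 from 3 counts, and 1 to 2 when each cell was left out. The count of lower genes, 0, became 1 by cell medians, from 1 CPM or without doxorubicin oocyte 4, and 13 from 3 counts (0 to 1 when each cell was left out). In granulosa cells the count of higher genes, 3, became 8 from 1 CPM, 19 from 3 counts and 1 over libraries with the other type's markers under 1/10 (3 to 4 when each cell was left out). That choice of granulosa libraries holds 3 control libraries and 1 doxorubicin library. The count of lower genes, 4, became 2 by cell medians, 9 from 1 CPM, 2 from 20 CPM, 22 from 3 counts and 19 over those libraries, and 1 (without control library 5) to 6 when each cell was left out. Between control cell types the count of higher genes, 4, became 7 from 1 CPM, 2 from 20 CPM and 22 from 3 counts (3 to 4 when each cell was left out), and that of lower genes, 12, became 6 by cell medians, 29 from 3 counts and 19 over those libraries (10 to 14). Values of at least 1 in size turned sign as follows. In oocytes H1f5 was -0.14 over libraries under 1/10 and H2bc4 ran from -0.75 without oocyte 4 to 1.78 when each cell was left out. In granulosa cells H1f1 (its 2 counts set to 3) ran from -8.10 to 0.24, the latter without control library 5, H2ac18 -0.035 over libraries with more of their own markers, and over libraries under 1/10 H1f8 was -6.81, H2ac18 -5.33 and H2bc4 -4.54. Between control cell types, by cell medians, the histone median was 0.19, the linker median 0.47, the core median 0.69, H1f1 0.47, H1f2 2.53 and H2ac8 0.39, where the median of all genes moved by 1.56, and without control granulosa library 5 the core median was 0.33 and H1f1 5.52 (lowest when each cell was left out, -1.57 and -2.92). Smaller values turned too. In granulosa cells by cell medians the core median was 0.79, H2ac8 2.04, Hist1h2ao 0.83 and Hist1h2ap 0.37. H4c4 was -0.24 over libraries with more of their own markers and -8.59 over those under 1/10, where H3f3a was -0.34. In oocytes Hist1h2ap was -0.11 over libraries under 1/10. Of 18 named genes, 9 kept their sign in oocytes and 4 (H1f2, H2az1, H2az2 and H3f3b) in granulosa cells under all alternatives and with each cell left out. Except where construction shows it, the cause was not tested. With 1 sample per group, differences between animals cannot be seen, and genes near 5 CPM are limited by few reads and few cells.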

Other observations

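The number of core histone genes with at least 5 reads, after thinning each cell to 5000000 counts, was 8 to 17, median 13, in control oocytes and 7 to 24, median 13.5, in doxorubicin oocytes. In granulosa cells it was 4 to 20, median 8, in control and 2 to 17, median 10, after doxorubicin. At the median this number was higher in oocytes than in granulosa cells, although the replacement variants of oocytes were lower. The number of all genes detected was not set beside it. Between the control cell types the median log2 ratio of all genes by cell medians was 1.53, towards oocytes. The number therefore cannot be read as particular to core histones.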
